A study of Mus musculus with 15 samples.

Results

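The TGF-beta and BMP pathway was represented in the HSC RNA-seq data by 10 genes: the ligand Tgfb1, the type I receptors Bmpr1a, Acvr1 and Tgfbr1, the type II receptors Bmpr2 and Tgfbr2, the co-receptor Eng and the intracellular mediators Smad3, Smad4 and Smad7. They were chosen by name as ligand, receptor and Smad genes of the pathway, with earlier results of these data known. All 10 had a row among the 16154 genes of the counts. Hematopoietic stem cells (HSC), the bone marrow cells from which all blood lineages arise, were sorted from 15 C57BL/6 mice, all labelled female, as Lin- Sca-1+ cKit+ CD150+ CD48- cells, with 1 library per mouse. The 5 young mice were 6 to 12 weeks old and the 5 aged mice were 20 to 24 months old, and both groups drank water without NR. A further 5 aged mice of 20 to 24 months drank water with 3 mg/ml nicotinamide riboside (NR), a vitamin B3 compound from which cells make NAD, for 2 months. No young mice with NR were analysed here, so the data hold no measure of NR in young HSC. Each gene was compared between aged and young HSC (age), between NR-treated and untreated aged HSC (treatment), and between NR-treated aged and young HSC.

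TGF-beta and BMP ligands act through pairs of serine/threonine kinase receptors on the cell surface. A type II receptor (TGFBR2 for TGF-beta, BMPR2 among others for BMP) binds the ligand and phosphorylates a type I receptor (TGFBR1 for TGF-beta, BMPR1A or ACVR1 for BMP), which then phosphorylates receptor Smads. SMAD3 carries the TGF-beta signal, and SMAD1 and SMAD5 carry the BMP signal. Both kinds of receptor Smad pair with the shared SMAD4 and act in the nucleus, while SMAD7 inhibits the receptors in a feedback loop. In the bone marrow, TGF-beta is known for holding HSC in quiescence, and BMP4 is a ligand of the marrow niche.

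The total counts per library were 2122221 to 3631395 in young, 764119 to 13318989 in aged and 2486399 to 3595384 in NR-treated HSC, and aged library 2 was the shallowest. All 10 listed HSC markers were detected, and their summed level was 1447 to 2007 CPM, counts scaled to a common library size, across the 15 libraries. Markers of mature blood cells differed between groups. The summed level of B and plasma cell, granulocyte and monocyte, and erythroid markers was 7874 to 11358 CPM in aged, 510.2 to 1356 CPM in NR-treated and 745.4 to 11862 CPM in young HSC, where young library 3 was highest. The untreated aged and NR-treated ranges did not overlap. The part of these cells in the differences of any pathway gene was not tested. Megakaryocyte and platelet markers summed to 618 to 782 CPM in young, 677 to 1084 CPM in aged and 606 to 1552 CPM in NR-treated HSC. T and NK cell markers summed to 108 to 193, 202 to 245 and 147 to 222 CPM, and stromal markers to 23.3 to 76.0, 24.9 to 44.1 and 28.0 to 39.8 CPM in the same order. Endothelial markers, part of which HSC also express, summed to 98.7 to 113, 98.5 to 118 and 90.1 to 132 CPM. Young libraries 1 and 5, labelled female like all others, held 104 and 108 CPM of 4 Y-linked genes against at most 3.16 CPM in the other 13 libraries. Each call on the pathway genes was therefore also made without them.

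Age moved the ligand Tgfb1 and the receptor Bmpr1a in opposite directions, and the 300 bases around the RefSeq start of each gene are shown for this reason. The windows run from 250 bases before to 50 bases after the RefSeq start on GRCm38.p6, at chr7:25686752-25687051 on the + strand for Tgfb1 and at chr14:34502497-34502796 on the - strand for Bmpr1a, and are written 5′ to 3′ along the gene. The RefSeq start equals the outermost GENCODE 5′ end for Tgfb1 and lies 795 bases downstream of it, inside the GENCODE gene, for Bmpr1a.
Tgfb1: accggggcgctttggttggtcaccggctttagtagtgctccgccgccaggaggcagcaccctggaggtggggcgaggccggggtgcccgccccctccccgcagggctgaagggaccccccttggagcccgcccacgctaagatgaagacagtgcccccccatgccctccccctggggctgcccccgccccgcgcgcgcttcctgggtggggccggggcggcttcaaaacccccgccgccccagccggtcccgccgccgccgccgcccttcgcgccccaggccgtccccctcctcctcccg
Bmpr1a: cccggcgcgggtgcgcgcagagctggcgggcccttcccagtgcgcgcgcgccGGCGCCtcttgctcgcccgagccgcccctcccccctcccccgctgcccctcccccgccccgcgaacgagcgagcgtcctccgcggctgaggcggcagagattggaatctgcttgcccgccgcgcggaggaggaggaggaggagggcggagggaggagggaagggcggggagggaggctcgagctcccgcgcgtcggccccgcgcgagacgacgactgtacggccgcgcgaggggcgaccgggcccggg
Capitals mark the only match in these 2 windows to GGCGCC, the GC-rich element that Smad proteins are known to bind at BMP target genes. A window of Tgfbr1 and the window of Bmpr2 also held 1 match each, and another window of Tgfbr1 held 0. Whether the element bears on the level of Bmpr1a was not tested. CAGAC, the core of the Smad binding element, had no match in either window on either strand. Among 32851 RefSeq promoter windows of this length, GGCGCC was present in 11.9% and CAGAC in 49.6%, without matching for GC content. The windows of Tgfb1 and Bmpr1a were 77.0% and 79.3% G or C, against a median of 52.7% over all promoters. The GC box GGGCGG, which 35.7% of promoters held, was found 6 times in the window of Tgfb1 and 4 times in that of Bmpr1a, counting both strands.

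Bmpr1a, which encodes the BMP type I receptor also called ALK3, rose strongly with age and remained high in HSC from NR-treated aged animals. The gene lies at chr14:34410734-34503341 on the - strand of GRCm38. In young HSC its level was 1.75, 1.21, 0.898, 0.726 and 1.35 CPM in libraries 1 to 5. In aged HSC it was 15.9, 6.49, 22.7, 21.3 and 23.5 CPM, and in NR-treated aged HSC it was 20.9, 25.0, 19.1, 27.8 and 13.3 CPM. Every aged library, treated or not, lay above every young library, and the treated and untreated aged libraries overlapped over most of their range. The mean was 1.19 ± 0.402 CPM (SD, n = 5) in young, 18.0 ± 7.08 CPM in aged and 21.2 ± 5.57 CPM in NR-treated aged HSC. The log2 fold change was 3.95 ± 0.34 (SE) for aged against young HSC (adjusted p = 1.33e-07 by edgeR's quasi-likelihood test) and 4.10 ± 0.34 for NR-treated aged against young HSC (adjusted p = 1.47e-07). By p it ranked 29 of the 16154 genes with age and 15 between NR-treated aged and young HSC. These ranks are not independent of the authors' row filter, which the gene met only through aged libraries, treated or not.

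The young level of Bmpr1a rested on 5, 3, 2, 2 and 5 counts in the 5 libraries. These are close to the limit of 3 counts, below which a value was not told from absence. The gene met the authors' filter of over 5 reads and over 2 CPM only through aged libraries, treated or not. Summed over libraries and scaled to their sizes, 621 counts in aged against 17 in young HSC gave a ratio of 17.0 with an exact 95% interval of 10.5 to 29.4. The ratio of NR-treated aged to young HSC was 17.3 (10.6 to 30.0), from 332 counts. Both intervals cover counting error only. NR-treated and untreated aged HSC differed by 0.15 on the log2 scale, with a 95% interval from -0.32 to 0.61 (adjusted p = 0.742). Without young libraries 1 and 5 the rise with age was 4.31 on the log2 scale. Exons of the gene Gm17110 on the other strand overlap the 5′ end of Bmpr1a, and Gm17110 itself had 0 to 1 counts in young, 0 to 10 in aged and 3 to 8 in NR-treated HSC. The summed mature blood cell markers were 7874 to 11358 CPM in aged and 510.2 to 1356 CPM in NR-treated libraries, 2 groups with overlapping Bmpr1a levels. Young library 3, at 11862 CPM of markers, had 0.898 CPM of Bmpr1a. The part of these cells in the levels of Bmpr1a was not tested.

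**Figure D1:**
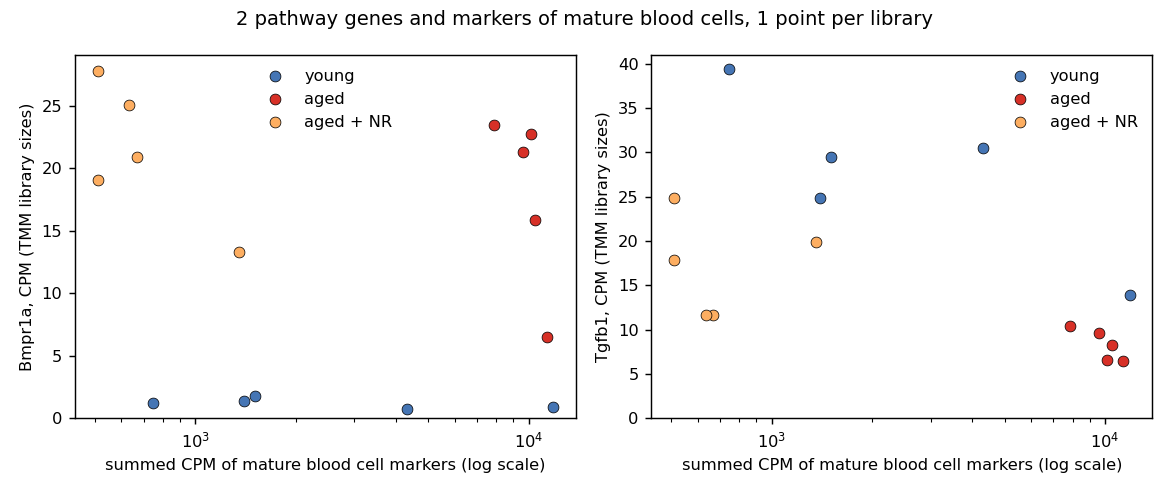
Level of Bmpr1a (left) and Tgfb1 (right) in CPM against the summed CPM of B and plasma cell, granulocyte and monocyte, and erythroid markers on a log axis, with 1 point per library. Bmpr1a is high in aged libraries at 7874 to 11358 CPM of markers and in NR-treated libraries at 510.2 to 1356 CPM, while the lowest Tgfb1 levels are in the aged libraries and the lowest young one is at 11862 CPM of markers.

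Tgfb1, the TGF-beta ligand, fell with age and was higher again in NR-treated aged HSC. It lies at chr7:25687002-25705077 on the + strand. Its level was 29.5, 39.4, 13.9, 30.5 and 24.8 CPM in young libraries 1 to 5. In aged HSC it was 8.24, 6.49, 6.59, 9.60 and 10.4 CPM. In HSC from NR-treated aged animals it was 11.6, 11.6, 24.9, 17.9 and 19.9 CPM. All aged libraries lay below all young and below all NR-treated libraries, and the young and NR-treated ranges overlapped. The log2 fold change with age was -1.71 ± 0.26 (adjusted p = 0.000148), and it passed in all 15 fits that left out 1 library and in all 8 alternative settings that tested it. With treatment Tgfb1 rose by 1.01 ± 0.26 (adjusted p = 0.0249). NR-treated aged HSC stood 0.70 below young HSC (log2 fold change -0.70 ± 0.25, adjusted p = 0.129), which did not pass the test.

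The rise of Tgfb1 with treatment depended on which libraries were included. The adjusted p was 0.0796 without aged library 3, 0.0771 without NR-treated library 3 and 0.0573 without NR-treated library 4, with log2 fold changes of 0.85 to 1.14 over all libraries left out in turn. It was 0.0645 when all libraries were thinned to the smallest total. The aged libraries and young library 3, with the highest sums of mature blood cell markers, had at most 13.9 CPM of Tgfb1, as did NR-treated libraries 1 and 2 at low sums. The young library with the lowest Tgfb1, library 3, had 8227 CPM of granulocyte and monocyte markers, against 437 CPM in the lowest young library. Without young library 3, the difference between NR-treated aged and young HSC was -0.86 and passed the test (adjusted p = 0.0344). The part of these cells in the levels of Tgfb1 was not tested, and in sorted bulk samples fewer cells that express a gene cannot be told apart from less RNA per cell.

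**Figure D2:**
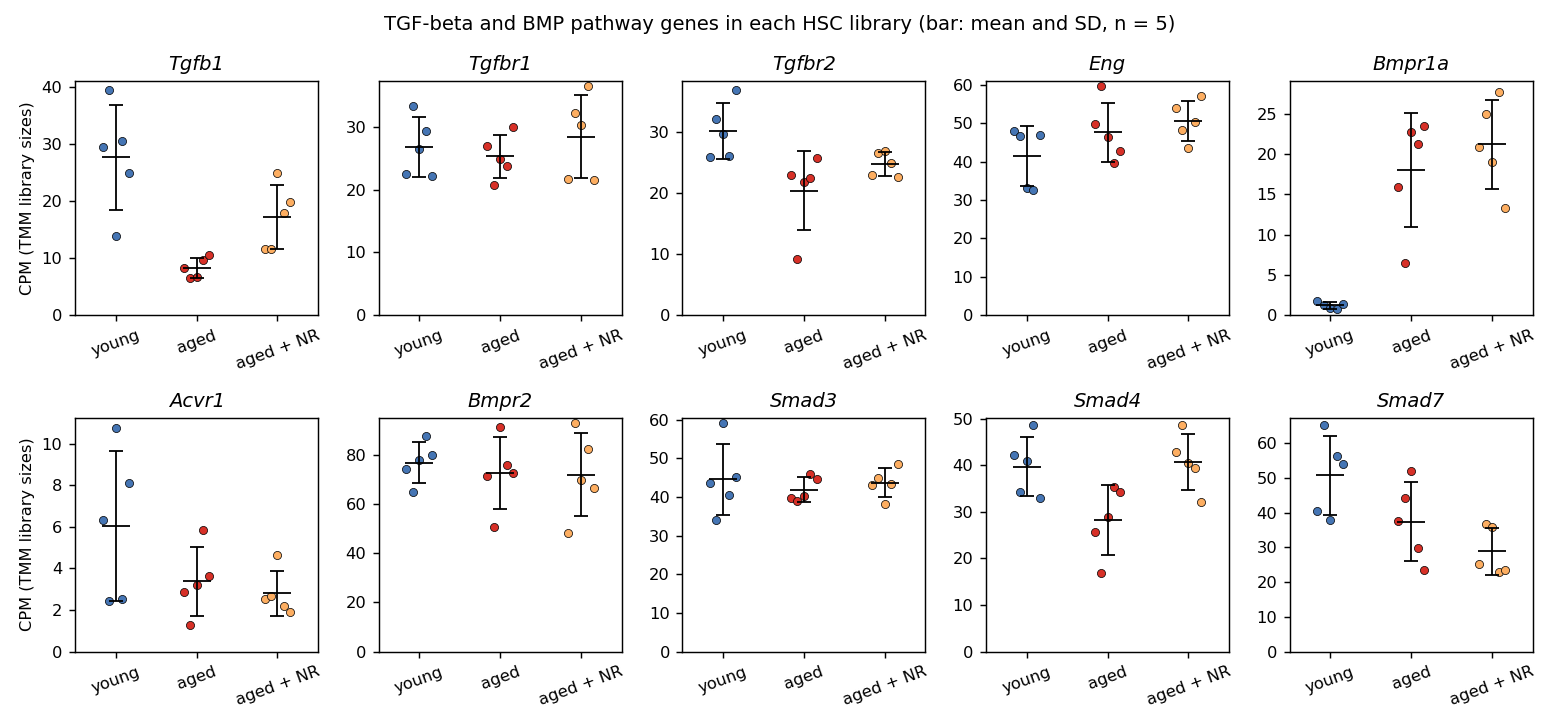
Level of each of the 10 pathway genes in CPM in the 15 HSC libraries, with the mean and SD of the 5 libraries per group as bars. Bmpr1a is below 2 CPM in all young libraries and at 6.49 CPM or more in all aged ones, Tgfb1 is lowest in the aged group, and Smad7 is lowest in the NR-treated group.

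Acvr1, the other BMP type I receptor among the 10 genes, was low and variable. It lies at chr2:58388644-58567157 on the - strand. The young libraries held 6.32, 2.41, 10.8, 2.54 and 8.09 CPM, the aged libraries 1.30 to 5.87 CPM and the NR-treated libraries 1.91 to 4.67 CPM. The 3 groups overlapped, and young libraries 2 and 4 lay below 4 of the 5 aged ones. The log2 fold change was -0.72 ± 0.41 with age (adjusted p = 0.230) and -1.12 ± 0.43 between NR-treated aged and young HSC (adjusted p = 0.164). Within single libraries, Bmpr1a gave 7.69% to 33.3% of the Bmpr1a and Acvr1 counts together in young, 78.4% to 87.6% in aged and 80.3% to 92.7% in NR-treated HSC. This share does not depend on the library size, and compares groups, not the abundance of the 2 transcripts.

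Bmpr2, the BMP type II receptor at chr1:59763400-59879014 on the + strand, did not pass the test in any comparison. It was 64.7 to 87.4 CPM in young, 50.6 to 91.4 CPM in aged and 48.0 to 92.7 CPM in NR-treated HSC. The log2 difference was -0.05 with age (95% interval -0.37 to 0.26) and -0.04 with treatment (-0.35 to 0.27). Per 100 Bmpr2 counts there were 0.830 to 2.37 Bmpr1a counts in young libraries, 12.8 to 32.3 in aged and 20.1 to 43.5 in NR-treated libraries. All 10 aged libraries, treated or not, lay above all young ones by this ratio, which restates the Bmpr1a counts against those of a type II partner.

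The TGF-beta receptors did not pass the test in any comparison. Tgfbr1, the type I receptor at chr4:47353222-47414931 on the + strand, was 22.1 to 33.4 CPM in young, 20.8 to 29.9 CPM in aged and 21.5 to 36.5 CPM in NR-treated HSC. Its log2 difference with age was -0.05, with a 95% interval from -0.39 to 0.28. Tgfbr2, the type II receptor at chr9:116084293-116175360 on the - strand, was 26.0, 32.1, 29.6, 26.1 and 36.9 CPM in young libraries. In aged libraries Tgfbr2 was 23.0, 9.08, 21.7, 22.4 and 25.7 CPM. The groups did not overlap, but the highest aged and the lowest young library were close to each other. In NR-treated HSC Tgfbr2 was 22.6 to 26.8 CPM. Its log2 fold change with age was -0.49 ± 0.17 (adjusted p = 0.0550). Tgfbr2 passed in the likelihood ratio test of edgeR (adjusted p = 0.0337) and in DESeq2 (adjusted p = 0.0275).

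Eng, which encodes the co-receptor endoglin and lies at chr2:32646595-32682669 on the + strand, was 32.7 to 48.1 CPM in young, 39.6 to 59.7 CPM in aged and 43.6 to 57.2 CPM in NR-treated HSC. Its largest difference was 0.29 ± 0.14 between NR-treated aged and young HSC (adjusted p = 0.304). Exons of Eng and of Fpgs on the other strand overlap, and the strand setting of the counting is not given in the sources used here. Fpgs had 42 to 71 counts in young, 11 to 224 in aged and 60 to 82 in NR-treated HSC.

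Smad3, the receptor Smad of TGF-beta at chr9:63646767-63757994 on the - strand, differed least between groups among the 3 Smads. It was 34.2 to 59.3 CPM in young, 38.9 to 45.9 CPM in aged and 38.1 to 48.5 CPM in NR-treated HSC. Its log2 differences were -0.08 with age (95% interval -0.34 to 0.18) and 0.05 with treatment (-0.21 to 0.32). It was used as the reference for Smad4 and Smad7 within each library.

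Smad4, the shared partner of receptor Smads, was lower in aged HSC than in the other groups by its mean, without passing the test. It was 42.1, 34.2, 40.9, 48.6 and 32.9 CPM in young, 25.6, 16.9, 28.8, 35.4 and 34.3 CPM in aged and 42.9, 48.6, 40.4, 39.4 and 32.1 CPM in NR-treated HSC. Aged libraries 1 to 3 were below all others, while aged libraries 4 and 5 overlapped both groups. The log2 fold change was -0.44 ± 0.17 with age (adjusted p = 0.0707) and 0.48 ± 0.17 with treatment (adjusted p = 0.0808). NR-treated aged and young HSC differed by 0.04, with a 95% interval from -0.29 to 0.36. Smad4 passed with age and with treatment in DESeq2 (adjusted p = 0.0451 and 0.0453). By edgeR's quasi-likelihood test it also passed in both with library totals in place of TMM (adjusted p = 0.0176 and 0.0223). The same held with at least 10 counts in every library (adjusted p = 0.0284 and 0.0382). Per 100 Smad3 counts there were 68.9 to 120 Smad4 counts in young, 43.3 to 77.1 in aged and 66.3 to 108 in NR-treated libraries.

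Smad7, the inhibitory Smad, was lowest in HSC from NR-treated aged animals. It was 40.4, 65.1, 37.7, 56.2 and 53.9 CPM in young libraries 1 to 5. In aged HSC it was 37.4, 44.1, 52.1, 29.9 and 23.5 CPM, and in NR-treated HSC 25.1, 36.7, 35.8, 23.0 and 23.4 CPM. All NR-treated libraries lay below all young libraries, by a narrow margin between the closest pair, and the untreated aged libraries overlapped both groups. NR-treated aged HSC differed from young HSC by -0.82 ± 0.21 (adjusted p = 0.0300). The steps from young to aged (-0.45 ± 0.21, adjusted p = 0.135) and from aged to NR-treated HSC (-0.37 ± 0.21, adjusted p = 0.292) had the same sign and did not pass. The difference from young HSC missed the threshold without young libraries 1 and 5 (adjusted p = 0.0552), when libraries were thinned (adjusted p = 0.302), and without young library 2, 4 or 5 or NR-treated library 1, 4 or 5 (adjusted p of 0.0616 to 0.0874). Per 100 Smad3 counts there were 63.6 to 191 Smad7 counts in young, 52.5 to 129 in aged and 48.3 to 93.9 in NR-treated libraries, and these ranges overlapped.

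**Figure D3:**
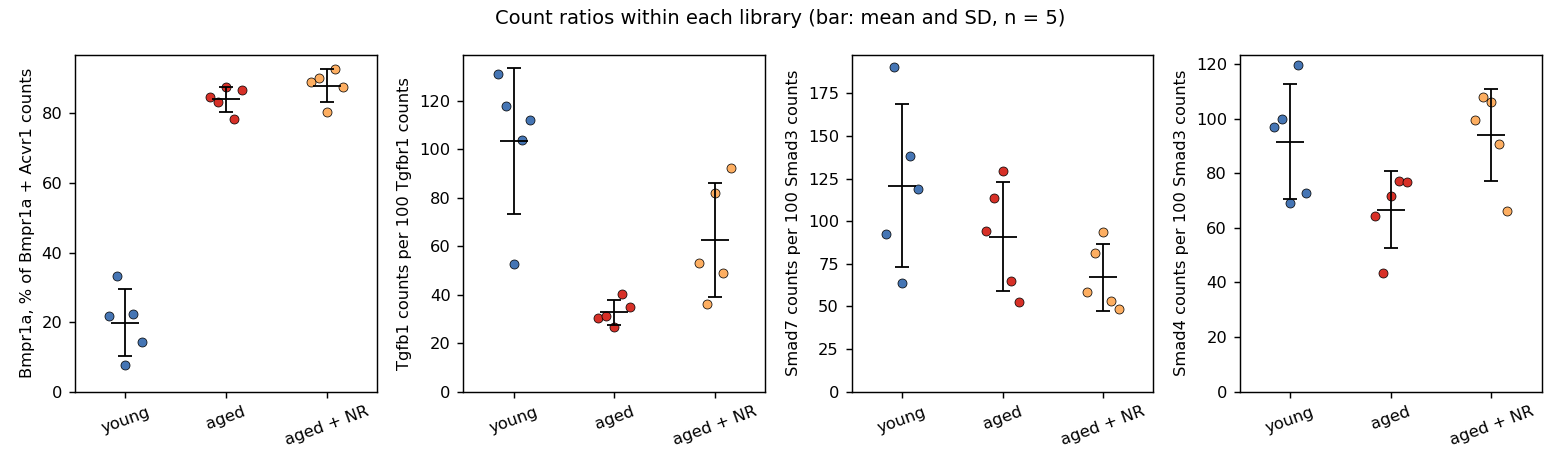
Share of Bmpr1a in the counts of Bmpr1a and Acvr1 (percent), and Tgfb1 per 100 Tgfbr1, Smad7 per 100 Smad3 and Smad4 per 100 Smad3 counts in each library, with the mean and SD of 5 libraries per group. The Bmpr1a share is at most 33.3% in young and at least 78.4% in aged libraries, and the Tgfb1 ratio is 26.5 to 40.3 in aged against 52.5 to 131 in young libraries.

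Across the 10 genes, 2 passed the test between aged and young HSC, Bmpr1a higher and Tgfb1 lower, against 19.3% of all genes (9.68% higher and 9.63% lower). With treatment 1 of 10 passed, Tgfb1 higher, against 8.07% of all genes (3.88% higher and 4.18% lower). Between NR-treated aged and young HSC 2 of 10 passed, Bmpr1a higher and Smad7 lower, against 4.47% of all genes (2.56% higher and 1.91% lower). The share of pathway genes called was close to that of all genes for age and treatment. At an unadjusted p under 0.05, 5, 2 and 4 of the 10 genes passed in the 3 comparisons, against 33.2%, 25.1% and 18.0% of all genes. The groups did not overlap for 3 genes with age (Bmpr1a, Tgfb1 and Tgfbr2), 1 with treatment (Tgfb1) and 2 between NR-treated aged and young HSC (Bmpr1a and Smad7), against 12.4%, 8.60% and 4.74% of all genes. Bmpr1a is in these counts although its row met the authors' filter only through aged libraries, treated or not. The median log2 fold change of the 10 genes was -0.26, 0.13 and -0.06, and that of all genes -0.03, 0.02 and -0.00. Scaling by library totals in place of TMM gave 29.1% rather than 50.1% of called genes as higher with age, and 78.4% rather than 48.1% with treatment. The comparisons share libraries, since the aged group enters both age and treatment.

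**Figure D4:**
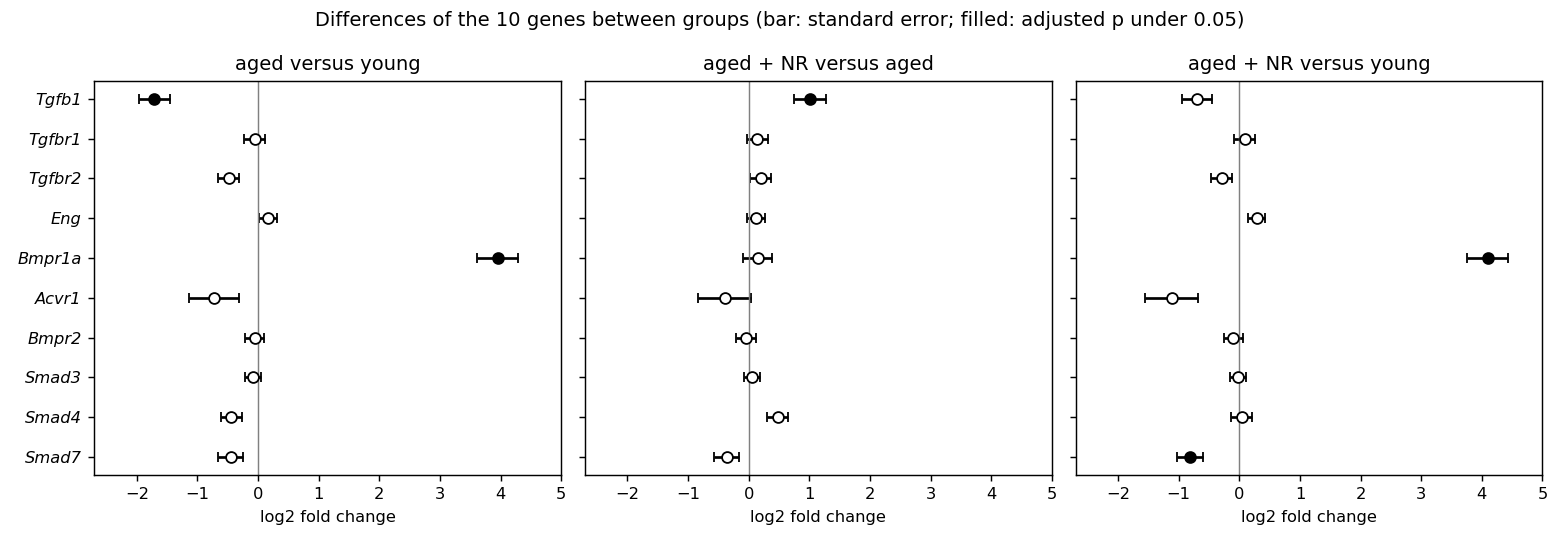
Log2 fold changes of the 10 genes in the 3 comparisons, with their standard errors as bars and filled points for an adjusted p under 0.05. Bmpr1a stands at 3.95 and 4.10 in both comparisons with young HSC and at 0.15 with treatment, and Tgfb1 moves from -1.71 with age to 1.01 with treatment.

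Other genes of the pathway were taken from 6 lists of 95 genes, of which 66 were tested. With age 12 of the 66 passed (6 higher and 6 lower) and with treatment 8 (3 higher and 5 lower). Between NR-treated aged and young HSC 6 passed (3 higher and 3 lower). Over all genes 19.3%, 8.07% and 4.47% passed in the same order, the background for the counts of each list below. The median log2 fold change of the 66 genes was -0.13, -0.03 and -0.10 in this order. None of the 4 other Smads tested (Smad1, Smad2, Smad5 and Smad6) passed in any comparison by edgeR's quasi-likelihood or likelihood ratio test or by DESeq2, and 0 had an unadjusted p under 0.05.

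Among 9 other ligands tested, 1 passed with age. Bmp4, a ligand of BMPR1A, had 2, 2, 3, 2 and 4 counts in young, 70, 4, 107, 44 and 44 counts in aged and 19, 27, 6, 21 and 26 counts in NR-treated libraries. It was 0.702 to 1.35 CPM in young and 5.19 to 10.1 CPM in aged HSC, without overlap. Summed and scaled to library size, 269 counts in aged against 13 in young HSC gave a ratio of 9.64 (exact 95% interval 5.54 to 18.3, counting error only). Bmp4 rose by 3.16 ± 0.37 with age (adjusted p = 8.66e-06) and stood 2.69 ± 0.38 above young HSC after treatment (adjusted p = 0.000174). Bmp4 and Bmpr1a, a ligand and its receptor, were both at 5 counts or fewer in every young library. Aged library 2, with 4 counts of Bmp4 and 5 of Bmpr1a, also lay within that limit. No young library met the authors' filter of over 5 reads and over 2 CPM for either gene. Both rows were thus kept through aged libraries alone, treated or not, and a link between the 2 genes was not tested. Exons of Gm15217 on the other strand overlap Bmp4. Bmp1, a protease rather than a ligand despite its name, was 5.19 to 9.84 CPM in aged and 9.33 to 19.1 CPM in NR-treated HSC (0.87 ± 0.26, adjusted p = 0.0472), and 9 of the 15 fits with 1 library left out did not call it.

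Of 11 genes for ligand storage, activation and traps, 1 passed in each comparison. Thbs1, whose product thrombospondin activates latent TGF-beta, fell with age (-0.92 ± 0.30, adjusted p = 0.0373) and was lowest after treatment, at 1.46 to 5.17 CPM against 6.32 to 16.6 CPM in young HSC (-1.66 ± 0.32, adjusted p = 0.00386). Fstl1, a follistatin-like secreted protein, fell with treatment, from 59.6 to 97.3 CPM in aged to 38.1 to 64.1 CPM in NR-treated HSC (-0.57 ± 0.15, adjusted p = 0.0240). The call of Thbs1 with age was lost in 7 of 15 fits that left out 1 library, and that of Fstl1 in 3.

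Of 7 other receptors and co-receptors, 1 passed with age and 2 between NR-treated aged and young HSC. Neo1, which encodes the BMP co-receptor and netrin receptor neogenin, rose from 2.81 to 8.71 CPM in young to 11.7 to 22.4 CPM in aged HSC (1.89 ± 0.28, adjusted p = 9.85e-05). It was 11.7 to 23.8 CPM in NR-treated HSC, 1.50 ± 0.28 above young HSC (adjusted p = 0.00274). Bambi, a pseudoreceptor that lacks the kinase and dampens signalling, was 13.3 to 24.5 CPM in young, 9.08 to 21.9 CPM in aged and 5.45 to 11.03 CPM in NR-treated HSC, so that the treated range overlapped the aged one. It was lower in NR-treated aged than in young HSC (-1.22 ± 0.26, adjusted p = 0.00812).

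Of 22 Smad regulators and cofactors, 6 passed with age (2 higher and 4 lower), 2 with treatment and 0 between NR-treated aged and young HSC by edgeR's quasi-likelihood test. In the last comparison 3 had an unadjusted p under 0.05, and 1 passed the likelihood ratio test and 0 DESeq2. Usp9x, which deubiquitinates SMAD4, fell from 36.2 to 57.0 CPM in young to 16.9 to 35.7 CPM in aged HSC (-0.91 ± 0.22, adjusted p = 0.00713) and rose with treatment to 27.1 to 55.2 CPM (0.84 ± 0.22, adjusted p = 0.0258). The treatment call of Usp9x was lost in 5 of 15 fits with 1 library left out, at adjusted p of up to 0.0826. Skil, a repressor of Smad transcription (-0.78 ± 0.25, adjusted p = 0.0358), and Map3k7, the kinase TAK1 (-0.62 ± 0.21, adjusted p = 0.0445), were lower in aged HSC. Map3k7 lost its call in 10 of 15 fits with 1 library left out and without young libraries 1 and 5 (adjusted p = 0.149). Skil reached 336 CPM in 1 young library, and without young library 2 its log2 fold change was -0.31 (adjusted p = 0.114). Zfyve9, the SARA protein that anchors receptor Smads, was higher with age (0.80 ± 0.21, adjusted p = 0.0126), but did not pass without young libraries 1 and 5 (0.66, adjusted p = 0.0972). Fkbp1a, which encodes FKBP12, a protein that binds type I receptors, fell with treatment by 0.41 on the log2 scale (adjusted p = 0.0172). Fkbp1a was also higher with age by 0.28 (adjusted p = 0.0448), a call not followed in other settings. Between NR-treated aged and young HSC Fkbp1a differed by -0.12 (adjusted p = 0.562).

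Of 13 common target genes, 3 passed with age (2 higher and 1 lower) and 4 with treatment (1 higher and 3 lower). Between NR-treated aged and young HSC 2 passed (1 higher and 1 lower). Over all genes 19.3%, 8.07% and 4.47% passed. The 1 gene called higher in the last 2 comparisons was Itga2b. The median log2 fold change of the 13 genes was 0.10, -0.58 and -0.43, against -0.03, 0.02 and -0.005 over all genes. Id2 rose from 11.7 to 44.0 CPM in young to 50.8 to 77.7 CPM in aged HSC (1.53 ± 0.28, adjusted p = 0.000853). Cdkn1c, the cell cycle inhibitor p57, rose with age (0.87 ± 0.17, adjusted p = 0.00201) and fell with treatment (-0.75 ± 0.17, adjusted p = 0.0152), from 109 to 140 CPM in aged to 36.2 to 88.8 CPM in NR-treated HSC. Id1, a BMP target and a regulator of differentiation, fell with treatment (-1.84 ± 0.38, adjusted p = 0.00906), from 4.98 to 8.28 CPM to 1.19 to 3.29 CPM, on 4 to 9 counts in each NR-treated library. Id1 was also lower than in young HSC (-1.64 ± 0.39, adjusted p = 0.0190), and both differences missed the threshold after thinning (adjusted p = 0.240 and 0.264). Bmpr1a did not pass in the same treatment comparison. Junb, an AP-1 factor, fell with treatment (-0.88 ± 0.26, adjusted p = 0.0440), and 9 of 15 fits with 1 library left out did not call it. The part of mature blood cells in the values of these target genes was not tested.

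Itga2b, the platelet integrin CD41, rose with treatment from 70.0 to 117 CPM to 129 to 233 CPM (1.07 ± 0.16, adjusted p = 0.00106) and stood above young HSC (0.66 ± 0.16, adjusted p = 0.0171). It is also one of the 8 megakaryocyte and platelet markers measured, whose highest sum, 1552 CPM, was in an NR-treated library. Col1a1, a collagen chain of stromal cells, was 2.11 to 16.7 CPM in young and 0 to 1.88 CPM in aged HSC (-2.60 ± 0.72, adjusted p = 0.0168). The difference in Col1a1 was -1.45 without young library 4 (adjusted p = 0.146). The part of megakaryocyte or stromal cells in these values was not tested.

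Thinning all libraries to the smallest total left several of these named genes without a call, at an adjusted p over 0.05. With age they were Thbs1, Usp9x, Zfyve9 and Map3k7, at adjusted p of 0.0529 to 0.492. With treatment they were Bmp1, Fstl1, Usp9x, Fkbp1a, Id1 and Junb, at adjusted p of 0.0540 to 0.467. Between NR-treated aged and young HSC they were Bmp4, Thbs1 and Id1, at adjusted p of 0.128 to 0.264. All of them kept their sign. Without young libraries 1 and 5, which enter the treatment comparison only through the shared estimate of spread, Bmp1 and Junb also missed the threshold with treatment (adjusted p = 0.0575 and 0.0585).

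**Figure D5:**
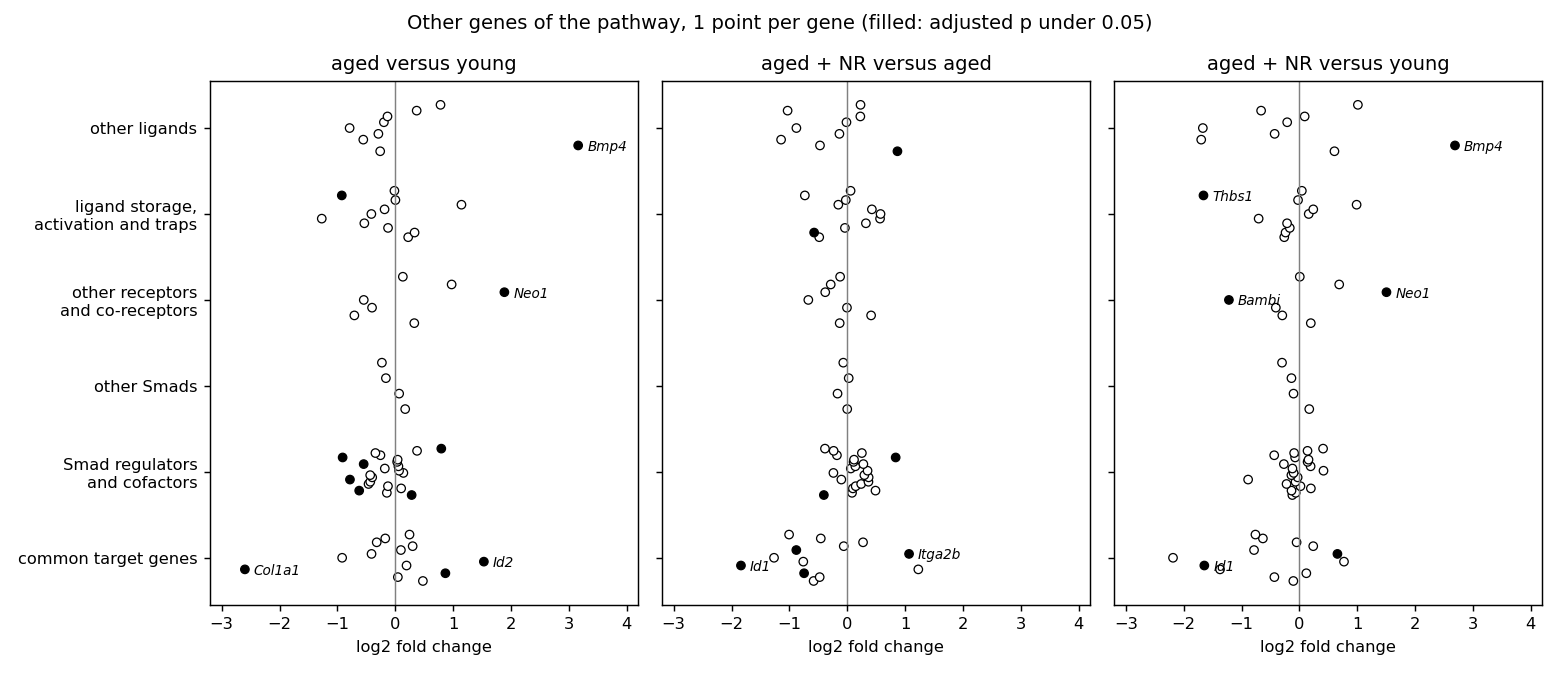
Log2 fold changes of the 66 other pathway genes in 6 lists for the 3 comparisons, 1 point per gene, filled where the adjusted p was under 0.05 and named where the log2 fold change also exceeded 1 in size. Bmp4 and Neo1 are the genes furthest to the right in both comparisons with young HSC, at 3.16 and 1.89 with age, and the 4 other Smads lie near 0.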

How the data were processed

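RNA from 20000 to 25000 sorted HSC per mouse was made into 3′-biased libraries with a 10 bp unique molecular identifier (UMI). The authors aligned reads with STAR 2.4.2a to GRCm38, dropped duplicate UMIs, counted reads on GENCODE exons with featureCounts and deposited raw counts per gene, kept at over 5 reads and over 2 CPM in at least 2 samples per their methods. In the file 32 of 16154 genes did not reach over 5 counts in 2 libraries. Here edgeR 4.0.16 in R 4.3.3 was fitted to the deposited counts of all 16154 genes in the 15 libraries together, with a term for group alone, TMM scaling, its quasi-likelihood test and Benjamini-Hochberg adjusted p under 0.05. CPM of single genes used TMM sizes, and marker sums used library totals. The SE was computed as the size of the log2 fold change over the square root of the quasi-likelihood F. Intervals are the log2 fold change and 95% of a normal curve with this SE, and are narrower than the test allows. For Eng between NR-treated aged and young HSC the interval was 0.005 to 0.57. The unadjusted p of Eng was 0.0596 by edgeR's quasi-likelihood test. The 10 genes, the marker lists and the pathway lists were chosen with earlier results of these data known. Of genes called, at most 4 per list with a mean of at least 5 CPM in the higher group were named. Positions came from GENCODE on GRCm38. RefSeq promoter windows were used for 8 of the 10 genes, and those of Smad4 and Smad7 were left out of the motif counts for single genes. DESeq2 1.42.0 was an alternative, and the fits were tested on simulated data.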

Additional observations from a re-analysis of the deposited data

Results flagged for a closer look

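In a check of the 10 pathway genes in the 3 groups, 30 sets of 5 libraries, a single library stood far from the other 4 in 2 sets. Chance gives about 1 in 20 such sets. Acvr1 was 4.67 CPM in NR-treated library 3, above the 1.91 to 2.68 CPM of the others. Tgfbr2 was 9.08 CPM in aged library 2, below the 21.7 to 25.7 CPM of the others, on 7 counts in the library with the lowest total.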

How the results depend on the processing

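Bmpr1a and Tgfb1 between aged and young HSC passed in all 15 fits that left out 1 library and in all 8 other settings that tested them. None of these fits applied the authors' filter again. They therefore cannot address that Bmpr1a met this filter only through aged libraries, treated or not. The 10 pathway genes called with age numbered 2, and 4 in DESeq2, 4 with library totals in place of TMM and 1 of the 6 testable with at least 10 counts in every library, which was Smad4, since Bmpr1a and Tgfb1 were not tested there. With treatment 1 was called, and 2 in DESeq2, 2 with library totals and 0 after thinning. After thinning 2767 of all genes still had an unadjusted p under 0.05. With at least 10 counts in every library the 1 called with treatment was Smad4, since Tgfb1 was not tested there. Between NR-treated aged and young HSC 2 were called, and 1 with at least 10 counts, 1 after thinning and 1 without young libraries 1 and 5. With 1 library left out these counts were 2 to 3, 0 to 1 and 1 to 3.

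Other pathway genes called with age went from 12 to 19 with library totals and 7 after thinning, with treatment from 8 to 5 with at least 10 counts and 2 after thinning, and between NR-treated aged and young HSC from 6 to 2 with at least 10 counts. With 1 library left out they were 8 to 19, 4 to 10 and 5 to 9. All genes called with age went from 3120 to 1484 after thinning and 1862 without young libraries 1 and 5, with treatment from 1303 to 783 with at least 10 counts and 445 after thinning, and in the third comparison from 722 to 395 after thinning. With 1 library left out they were 1953 to 3533, 422 to 1535 and 452 to 922. Thinning and the count filter test fewer reads or genes, and for other settings the cause was not tested.

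Sign changes occurred in genes that were not called. Thinning gave -0.067 for Eng with age, 0.32 for Acvr1 and 0.023 for Bmpr2 with treatment, and -0.060 for Tgfbr1 between NR-treated aged and young HSC. Bmpr2 with treatment was 0.11 with library totals and 0.031 with at least 10 counts. Without young libraries 1 and 5, Tgfbr1 was -0.071 and Smad4 -0.020 between NR-treated aged and young HSC. With 1 library left out, the range with age was -0.12 to 0.038 for Tgfbr1, -0.15 to 0.022 for Bmpr2 and -0.16 to 0.041 for Smad3, and with treatment -0.15 to 0.085 for Bmpr2. Between NR-treated aged and young HSC it was -0.017 to 0.18 for Tgfbr1, -0.21 to 0.025 for Bmpr2, -0.11 to 0.091 for Smad3 and -0.036 to 0.12 for Smad4. Library totals moved the median of all genes to -0.16 with age and 0.16 with treatment.

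Same replicate numbers did not mark paired libraries. After subtracting group means, same-numbered libraries had a mean correlation of 0.00211 (range -0.27 to 0.13), and 3 of 15 libraries correlated best with their own number. With a replicate block, 2, 1 and 2 of the 10 genes, 12, 7 and 5 other pathway genes and 2836, 1048 and 589 of all genes were called. Counts of 1 to 7 in the shallowest aged library and 2 to 5 in young HSC limit Acvr1, Tgfb1, Tgfbr2, Bmpr1a and Bmp4.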
